A study of Mus musculus with 7 samples.

Results

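The genes described are the constitutive subunits of the proteasome, with the variants and assembly factors that carry the same names. They were taken as every gene symbol of the deposited count table made of Psma, Psmb, Psmc or Psmd and a number, without the immunoproteasome genes Psmb8, Psmb9 and Psmb10, which gave 36 of 23420 genes. RNA was sequenced from microglia, which are the brain's own macrophages, sorted as CD11b+, CD45low and CX3CR1+ cells; the cortices were taken on postnatal day 30. The 4 cKO libraries are from MG-Srgap2f/f mice, which carry Tmem119creErt2 and are Srgap2f/f, and the 3 WT libraries are from Srgap2f/f mice without the recombinase. Mice of both groups were given tamoxifen by gavage at 75 ug per g body weight, in 2 doses at postnatal days 8 and 10. Each library is from 1 numbered mouse, and p-values rest on how mice of a group differ. The recombinase is an inducible Cre driven from Tmem119, a gene of microglia, and only cKO mice carry it, so its own effects and those of losing Srgap2 cannot be told apart. The labels give neither sex nor litter nor sort or sequencing batch.

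The proteasome is the protease that degrades proteins tagged with ubiquitin. Its core particle, called 20S, is a barrel of outer alpha rings, which gate the entry, and inner beta rings, which hold the proteolytic sites. The regulatory particle, called 19S, binds ubiquitin chains, removes them, unfolds the substrate with a ring of ATPases and feeds it into the core. Cells of the immune system, microglia among them, can exchange the catalytic beta subunits for the immunoproteasome forms, which cut peptides for presentation on MHC class I.

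The targeted gene was checked first. Srgap2 was at 344, 257, 275 and 212 CPM in the cKO mice, against 979, 691 and 693 CPM in the WT mice, with no overlap (log2 fold change −1.53 with SE 0.17, adjusted p = 0.0053). CPM are counts divided by library size after TMM scaling; values of single libraries are given in replicate order, and adjusted p-values are edgeR's with Benjamini-Hochberg adjustment. Total counts ranged from 27016173 to 35707304 per library. The 8 microglial markers summed to 48115 to 55618 CPM in cKO and 55465 to 58707 CPM in WT. Of these markers 1 passed the threshold, Tmem119, which is lower in cKO and is the gene that drives the recombinase. Markers of other cells were scarce: all 5 markers of each list together reached at most 108 CPM for border macrophages, 10.5 CPM for monocytes and neutrophils, 0.18 CPM for lymphocytes, 2.71 CPM for neurons, 136 CPM for astrocytes, 144 CPM for the oligodendrocyte lineage and 75.8 CPM for endothelial and mural cells. No gene of those lists passed the threshold, and 2 endothelial and mural markers (Cldn5 and Rgs5) had no count in any library. The sum for astrocytes was 136, 86.0, 95.7 and 83.5 CPM in the cKO mice, against 129.9, 130.9 and 135.5 CPM in the WT mice. Of the cKO libraries, only replicate 1 reached the level of WT. The part of other cell types in the results below was not tested.

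Fitted RNA levels of nearly every proteasome gene lay a little above WT in cKO, and none of these differences passed the test. Of the 36 genes, 35 had enough counts to be tested and 1, Psmb11, a beta subunit of the thymus, had 0 counts in every library, where 3 counts per library is the limit that a count of 0 allows. The log2 fold change, cKO against WT, was above 0 for 34 of the 35 (97.1%), beside 48.1% of the 11991 genes tested. Its median was 0.29 over the 35 genes and −0.012 over all genes tested, and 13.8% of all genes lay above 0.29. With the quasi-likelihood test of edgeR, 0 of 35 passed an adjusted p of 0.05, beside 0.359% of all genes (38 higher, which is 0.317%, and 5 lower), and the smallest adjusted p was 0.14. At an unadjusted p under 0.05, 18 of 35 (51.4%) were higher and 0 lower, beside 9.65% of all genes higher and 16.5% in either direction. Leaving out cKO replicate 1 gave 24 of 35, leaving out cKO replicate 2 gave 9 and leaving out WT replicate 1 gave 8, beside 18.8%, 13.2% and 14.9% of all genes in either direction in the same fits. Leaving out any one of the other libraries gave 12 or 13, beside 10.7% to 18.3% of all genes. With other tools 4 of 35 passed in DESeq2, all higher (beside 3.53% of all genes higher and 5.08% in either direction), and 0 of 35 in limma-voom, beside 0.392%. In bulk RNA, a change in the number of cells of a type and a change in the RNA per cell cannot be told apart.

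**Figure D1:**
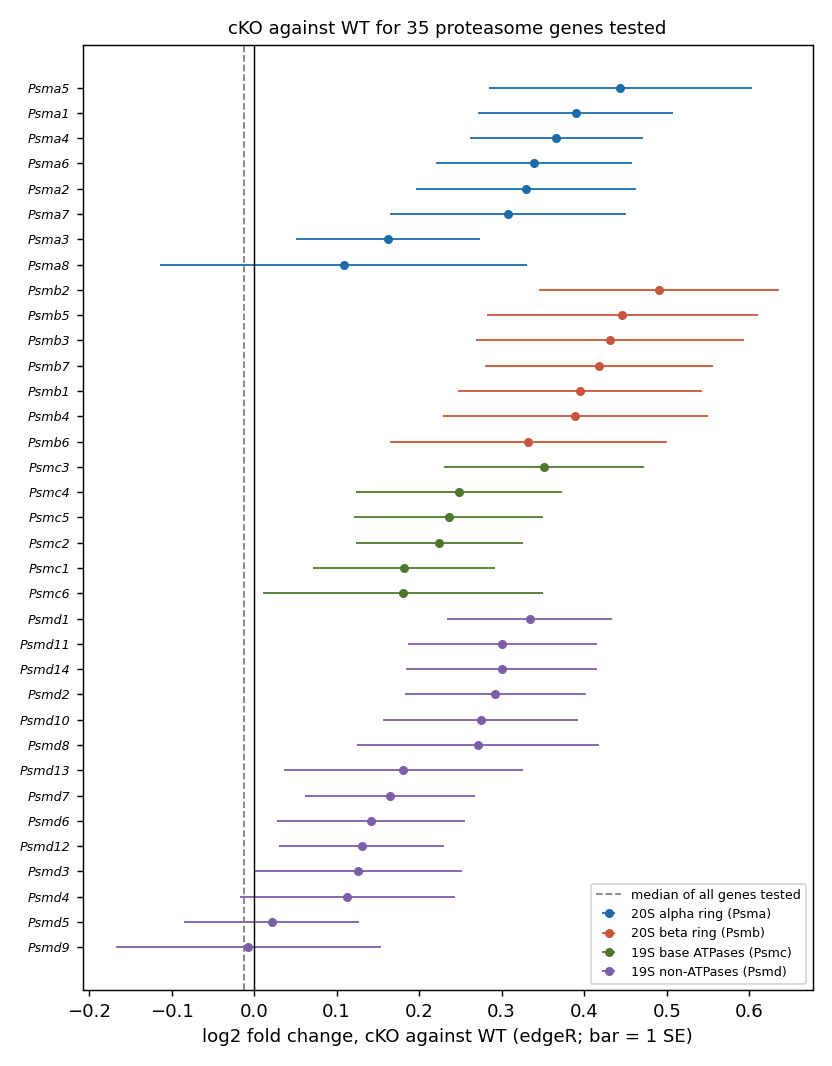
Log2 fold change (x axis, cKO against WT, 4 and 3 libraries) of each of the 35 genes tested, grouped and coloured by the part of the complex; bars are 1 SE and the dashed line is the median of all genes tested, −0.012. All points but that of Psmd9 lie to the right of 0, and those of the beta ring lie between 0.33 and 0.49.

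The libraries differed in how far they stood from WT. The median log2 difference of the 35 genes from their own mean in WT was 0.068, 0.34, 0.27 and 0.41 for the cKO mice, against −0.093, 0.019 and 0.070 for the WT mice. So, after TMM scaling, cKO replicate 1 lay at the level of WT replicate 3, while the other cKO libraries lay above every WT library. Summed over the 35 genes, the level was 2809, 3451, 3240.4 and 3640 CPM for the cKO mice, against 2526, 2761 and 2837 CPM for the WT mice. The share of all counts, without TMM scaling, ran from 0.3002% (replicate 1) to 0.337% in cKO and from 0.256% to 0.285% in WT. By this share every cKO library lay above every WT library. For the sum, the place of cKO replicate 1 relative to WT replicate 3 thus depended on the scaling. Of the 35 genes, cKO replicate 1 was the lowest of the cKO libraries for 25, and WT replicate 1 the lowest of the WT libraries for 29. Every cKO library was above every WT library for 12 of the 35 genes (34.3%), beside 8.86% of all genes. This held for 17 without WT replicate 3, beside 12.6%, and for 26 without cKO replicate 1, beside 14.2%. Without any one of the other libraries it held for 12 to 14, beside 9.67% to 13.8%. With all libraries, no gene of the 35 had the reverse order, beside 7.2% of all genes.

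**Figure D2:**
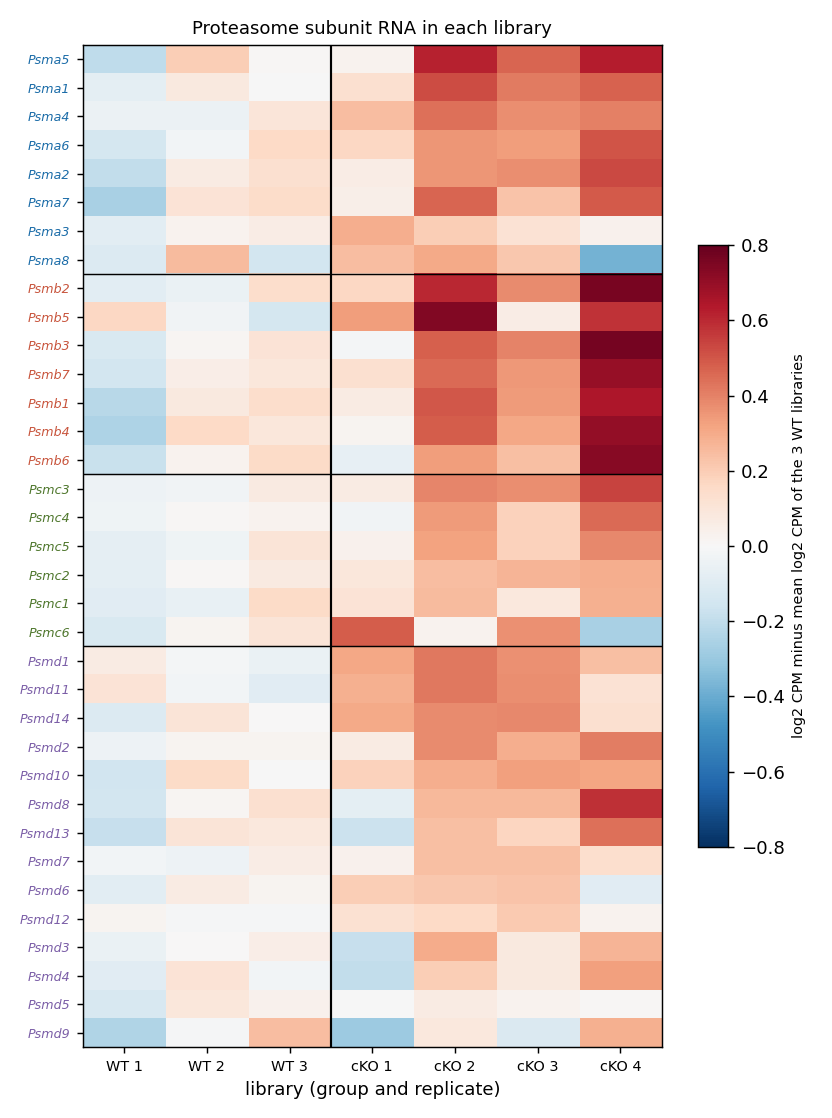
Level of each of the 35 genes (rows, names coloured by part of the complex: alpha ring, beta ring, ATPases and non-ATPases from top to bottom) in each library (columns), as log2 CPM minus the mean log2 CPM of the 3 WT libraries. Red stands for a higher level; cKO replicates 2 and 4 are the reddest columns for the 20S genes, and cKO replicate 1 is pale.

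In the outer alpha ring of the core, all 8 genes tested had a log2 fold change above 0, with a median of 0.33 and a range from 0.11 to 0.44. At an unadjusted p under 0.05, 5 of the 8 were higher, beside 9.65% of all genes. Psma4, an alpha ring subunit, was at 53.2, 60.9, 57.9 and 59.3 CPM in the cKO mice, against 43.3, 43.4 and 47.9 CPM in the WT mice. The groups did not overlap, with means of 57.8 ± 3.34 CPM for cKO (SD, n = 4) and 44.8 ± 2.62 CPM for WT (SD, n = 3), but the difference did not pass (log2 fold change 0.37 with SE 0.11, adjusted p = 0.14). Psma1 was at 99.4, 131, 121 and 126 CPM in the cKO mice, against 86.5, 96.1 and 91.1 CPM in the WT mice. Here too the groups did not overlap, with cKO replicate 1 the lowest of its group and just above WT replicate 2 (log2 fold change 0.39 with SE 0.12, adjusted p = 0.15). Psma6 was at 97.3, 111, 109.5 and 123 CPM in the cKO mice, against 78.6, 85.5 and 96.9 CPM in the WT mice. Its groups stood side by side, with cKO replicate 1 and WT replicate 3 at nearly the same level (log2 fold change 0.34 with SE 0.12, adjusted p = 0.19). The steepest of the ring was Psma5, at 36.0, 54.1, 48.7 and 54.8 CPM in the cKO mice, against 30.7, 40.5 and 35.6 CPM in the WT mice. For Psma5, cKO replicate 1 lay within the WT range and the other cKO libraries above it (log2 fold change 0.44 with SE 0.16, adjusted p = 0.20). Psma2 and Psma7 had log2 fold changes of 0.33 and 0.31, and Psma3 one of 0.16.

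Psma8 encodes the alpha subunit that replaces Psma7 in germ cells. It was at 4.36, 4.54, 4.26 and 2.82 CPM in the cKO mice, against 3.4, 4.38 and 3.32 CPM in the WT mice, from 92 to 138 counts per library. Per kilobase of transcript, its level in WT was 2.41% of that of Psma7. The groups overlapped, with cKO replicate 4 the lowest of all libraries (log2 fold change 0.11 with SE 0.22, adjusted p = 0.86). Since the counting rule is not given in the sources used here, reads of such close relatives have an uncertain assignment.

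In the inner beta ring, all 7 genes tested had a log2 fold change of at least 0.33, with a median of 0.42, and all 7 lay above the median of the 35 genes. At an unadjusted p under 0.05, 6 of the 7 were higher, beside 9.65% of all genes. The non-catalytic Psmb2 had the largest fold change of the 35 genes, 1.41-fold. It was at 52.7, 71.4, 60.9 and 79.5 CPM in the cKO mice, against 44.3, 45.2 and 51.7 CPM in the WT mice, with no overlap between the groups (log2 fold change 0.49 with SE 0.15, adjusted p = 0.15). Psmb1, also non-catalytic, was at 81.8, 110.2, 98.8 and 122 CPM in the cKO mice, against 66.9, 82.5 and 86.1 CPM in the WT mice. Only cKO replicate 1 of the cKO libraries lay within the WT range of Psmb1 (log2 fold change 0.39 with SE 0.15, adjusted p = 0.21). Psmb3 and Psmb4, the other non-catalytic subunits, had log2 fold changes of 0.43 and 0.39.

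The log2 fold changes of the catalytic beta subunits ranged from 0.33 to 0.45. Psmb7, which has trypsin-like activity, was at 94.4, 118, 109.9 and 140.0 CPM in the cKO mice, against 78.0, 89.7 and 92.0 CPM in the WT mice. The groups did not overlap, and the difference did not pass (log2 fold change 0.42 with SE 0.14, adjusted p = 0.17). Psmb5, which has the chymotrypsin-like activity that proteasome inhibitors block, was at 30.9, 41.0, 25.5 and 36.5 CPM in the cKO mice, against 27.5, 24 and 22.3 CPM in the WT mice. Of its cKO libraries, cKO replicate 3 lay within the WT range and the other 3 above it (log2 fold change 0.45 with SE 0.16, adjusted p = 0.21). Psmb6, which has caspase-like activity, was at 104, 138, 129 and 181 CPM in the cKO mice, against 96.5, 111 and 121 CPM in the WT mice. cKO replicate 1 was within the WT range and cKO replicate 4 was the highest library (log2 fold change 0.33 with SE 0.17, adjusted p = 0.35).

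The immunoproteasome counterparts of these subunits gave a reference inside each library. Psmb8, the counterpart of Psmb5, was at 162, 224, 195 and 245 CPM in the cKO mice, against 147, 190.4 and 189.6 CPM in the WT mice (log2 fold change 0.23 with SE 0.15, adjusted p = 0.48). Psmb10, the counterpart of Psmb7, was at 100.5, 137, 142 and 167 CPM in the cKO mice, against 108, 134 and 131 CPM in the WT mice (log2 fold change 0.14 with SE 0.16, adjusted p = 0.72). Psmb9, the counterpart of Psmb6, had a log2 fold change of −0.11 (SE 0.15). The groups overlapped for all 3. The ratio of CPM per kilobase of Psmb6 to Psmb9 was 3.58, 3.84, 4.08 and 4.39 for cKO, against 3.16, 2.78 and 2.95 for WT, so that it was higher in every cKO library. The ratio of Psmb7 to Psmb10 was 1.06, 0.977, 0.872 and 0.947 in cKO and 0.818, 0.755 and 0.796 in WT, again with no overlap. The ratio of Psmb5 to Psmb8 was 0.344, 0.332, 0.237 and 0.270 in cKO and 0.339, 0.228 and 0.213 in WT, and the groups overlapped. A ratio within a library does not depend on the scaling of that library. It can still depend on the library's trends with transcript length and GC content. Transcript length was 798 nucleotides for Psmb6 and 1352 for Psmb9, and GC content 48.7% for Psmb7 and 56.5% for Psmb10. How often other pairs of genes show no overlap was not counted. These ratios were chosen after the values were seen and were not tested. Per length, Psmb8 RNA was thus above Psmb5 RNA in every library of both groups, and Psmb6 RNA above Psmb9 RNA.

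**Figure D3:**
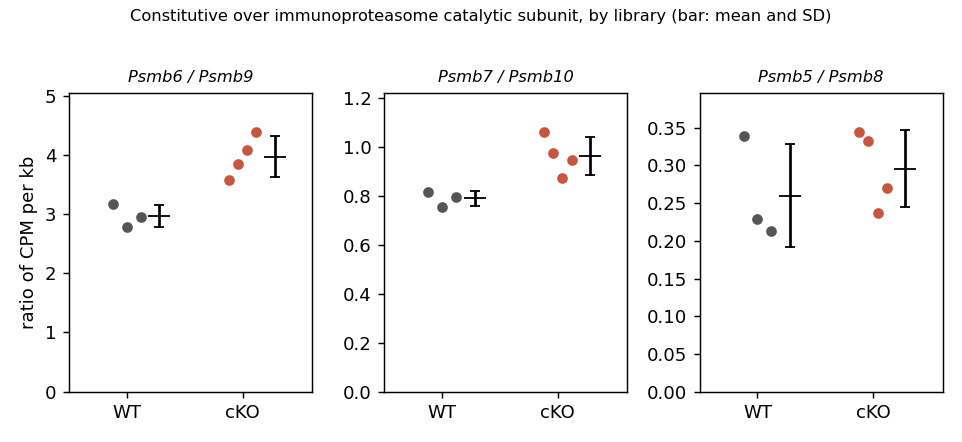
Ratio of CPM per kilobase of each constitutive catalytic subunit to its immunoproteasome counterpart (y axis, from 0) in each WT and cKO library (points, 3 and 4), with mean and SD beside them. The groups are apart for Psmb6 over Psmb9 and Psmb7 over Psmb10, and overlap for Psmb5 over Psmb8, where WT replicate 1 is at 0.339.

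The base of the 19S particle holds 6 ATPases. All 6 had a log2 fold change above 0, with a median of 0.23 and a range from 0.18 to 0.35. At an unadjusted p under 0.05, 2 of 6 were higher, beside 9.65% of all genes. Psmc3 was the most abundant of the ATPases per kilobase of transcript, at 147 CPM per kilobase in cKO and 115 in WT. Its level was 197, 246, 243 and 274 CPM in the cKO mice, and 183, 184 and 198 CPM in the WT mice. For Psmc3, cKO replicate 1 lay just under WT replicate 3 and the other cKO libraries above it (log2 fold change 0.35 with SE 0.12, adjusted p = 0.18). Psmc2 was at 139.7, 156, 158 and 161 CPM in the cKO mice, against 124, 132 and 138 CPM in the WT mice. Its groups did not overlap, with cKO replicate 1 just above WT replicate 3 (log2 fold change 0.22 with SE 0.10, adjusted p = 0.29). Psmc5 was at 99.1, 121, 110.2 and 126 CPM in the cKO mice, against 92.3, 94.7 and 104 CPM in the WT mice, with cKO replicate 1 within the WT range (log2 fold change 0.24 with SE 0.11, adjusted p = 0.33). Psmc4 was at 79.3, 103, 92.2 and 111 CPM in the cKO mice, against 79.0, 81.5 and 82.5 CPM in the WT mice. The 3 WT libraries of Psmc4 were close together, and cKO replicate 1 lay among them (log2 fold change 0.25 with SE 0.12, adjusted p = 0.35). Psmc1 had a log2 fold change of 0.18. Psmc6 was at 43.1, 31.3, 39.7 and 25.7 CPM in the cKO mice, against 28.2, 31.3 and 33.0 CPM in the WT mice. In Psmc6 the order of the cKO libraries was turned around, with cKO replicate 1 the highest and cKO replicate 4 the lowest of all 7 libraries (log2 fold change 0.18 with SE 0.17, adjusted p = 0.65).

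Of the 14 non-ATPase genes, 13 had a log2 fold change above 0 and the median was 0.17. At an unadjusted p under 0.05, 5 of the 14 were higher, beside 9.65% of all genes. The scaffolds of the base, Psmd1 and Psmd2, which hold the receptors of ubiquitin chains, were among these 5. Psmd1 was at 105, 113, 109 and 99.9 CPM in the cKO mice, against 88.7, 83.8 and 81.7 CPM in the WT mice. The groups were clearly apart and cKO replicate 1 was like the other cKO libraries (log2 fold change 0.33 with SE 0.10, adjusted p = 0.15). Psmd2 was at 195, 243, 229 and 248 CPM in the cKO mice, against 182, 189 and 189 CPM in the WT mice, also with no overlap (log2 fold change 0.29 with SE 0.11, adjusted p = 0.21). Psmd4, a receptor of ubiquitin chains, had a log2 fold change of 0.11, and its groups overlapped.

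The 8 lid genes had a median log2 fold change of 0.17, with a range from 0.13 to 0.30. Psmd14, the lid enzyme that cuts ubiquitin chains off the substrate, was at 38.5, 40.5, 40.7 and 34.0 CPM in the cKO mice, against 28.9, 33.5 and 31.2 CPM in the WT mice. Its lowest cKO library, replicate 4, was just above its highest WT library (log2 fold change 0.30 with SE 0.12, adjusted p = 0.22). Psmd11, a structural subunit of the lid, was at 50.5, 55.7, 53.7 and 45.1 CPM in the cKO mice, against 44.8, 41.0 and 39.1 CPM in the WT mice. For this gene too, cKO replicate 4 was the lowest of the cKO libraries, close to WT replicate 1 (log2 fold change 0.30 with SE 0.11, adjusted p = 0.22). The other lid genes, Psmd3, Psmd6, Psmd7, Psmd8, Psmd12 and Psmd13, had log2 fold changes of 0.13, 0.14, 0.16, 0.27, 0.13 and 0.18, each with an unadjusted p above 0.05.

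Psmd5, Psmd9 and Psmd10 encode chaperones that help to build the ATPase ring and leave it before the particle is complete. Psmd9 was the 1 gene of the 35 that was not above 0. It was at 27.3, 35.4, 30.8 and 40.6 CPM in the cKO mice, against 28.2, 33.2 and 39.6 CPM in the WT mice, and the groups covered the same range (log2 fold change −0.0070 with SE 0.16, adjusted p = 0.99). Psmd5 was at 37.1 ± 0.833 CPM for cKO (SD, n = 4) and 36.5 ± 2.83 CPM for WT (SD, n = 3), a log2 fold change of 0.022 (SE 0.11). Psmd10, also called gankyrin, had a log2 fold change of 0.27 (SE 0.12, adjusted p = 0.27), with no overlap between the groups. The signs of Psmd5 and Psmd9 changed with the setting of the fit.

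Promoters were searched for the core of the antioxidant response element, written TGACNNNGC, because factors that bind this element, Nfe2l1 and Nfe2l2, are known to drive proteasome genes. Windows from 250 bases before to 50 bases after the start site, from RefSeq on GRCm38.p6, were at hand for 29 of the 36 genes (31 windows). The core was found on either strand in 5 of the 31 windows (16.1%), beside 12.4% of all 32851 windows. The sites of the 5 genes are shown because they include both the catalytic Psmb5 and Psmb6 and the 1 gene that was not above 0, Psmd9. Each is read 5′ to 3′ on the strand named, with the core in capitals and up to 10 bases on each side.
Psmb5 (chr14:54618024-54618052, minus strand): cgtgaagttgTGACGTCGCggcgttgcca
Psmb6 (chr11:70525338-70525366, plus strand): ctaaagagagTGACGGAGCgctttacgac
Psmc6 (chr14:45329587-45329615, minus strand): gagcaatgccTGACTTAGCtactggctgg
Psmd12 (chr11:107479278-107479299, minus strand): ggggcaaatgTGACACAGCaga
Psmd9 (chr5:123228149-123228177, plus strand): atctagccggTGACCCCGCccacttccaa

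The genes with this core spanned the range of the group, with log2 fold changes of 0.45 for Psmb5, 0.33 for Psmb6, 0.18 for Psmc6, 0.13 for Psmd12 and −0.0070 for Psmd9. A match is a description and not a bound site. The 250 bases before the start sites of Psmb5 and Psmd9, the highest and the lowest of these 5 genes, are given on the strand of the gene with the core in capitals.
Psmb5 (chr14:54617996-54618245, minus strand): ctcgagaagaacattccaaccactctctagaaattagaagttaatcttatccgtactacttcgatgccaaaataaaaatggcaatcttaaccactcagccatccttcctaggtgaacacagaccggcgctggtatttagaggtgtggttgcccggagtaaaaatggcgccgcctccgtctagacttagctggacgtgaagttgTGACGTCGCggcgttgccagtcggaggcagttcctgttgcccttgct
Psmd9 (chr5:123227940-123228189, plus strand): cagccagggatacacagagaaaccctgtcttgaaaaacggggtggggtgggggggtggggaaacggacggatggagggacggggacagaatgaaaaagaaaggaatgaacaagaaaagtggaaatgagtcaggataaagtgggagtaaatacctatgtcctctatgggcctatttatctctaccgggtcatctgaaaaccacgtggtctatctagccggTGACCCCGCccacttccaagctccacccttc

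Other short motifs, again on both strands, were CCAAT in 12 of 31 windows (38.7%, beside 37.4% of all windows), GGGCGG in 18 (58.1%, beside 35.7%) and CCGGAA, the core bound by ETS factors, in 16 (51.6%, beside 14.9%). The looser core TGANNNNGC, which contains every TGACNNNGC match, was in 18 of 31 windows, beside 41.3% of all windows.

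In the reported fit, the log2 fold changes differed with the part of the complex and with transcript length, which go together in these genes. The order of the classes was not the same in every alternative fit. Of the 15 core particle genes tested, 13 lay above the median of the 35 genes, and of the 20 regulatory particle genes 4 did. The medians were 0.39 and 0.20. The mean log2 CPM of 14 core genes (without Psma8) minus that of 17 regulatory genes (without the 3 chaperones) was −0.41, −0.26, −0.38 and −0.13 for cKO, against −0.52, −0.41 and −0.40 for WT. So cKO replicate 1 lay within the WT range on this measure, and the difference between the particles was not tested. The principal transcripts of the core genes had a median length of 1165 nucleotides, those of the regulatory genes 1844.5 and those of all genes tested 3017. Across the 35 genes, which share the 7 libraries and are not independent, Spearman's rho of the fold change with length was −0.59, and across 11922 genes tested it was −0.10. This rho was taken across the classes, so part and length were not told apart, and neither was tested.

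**Figure D4:**
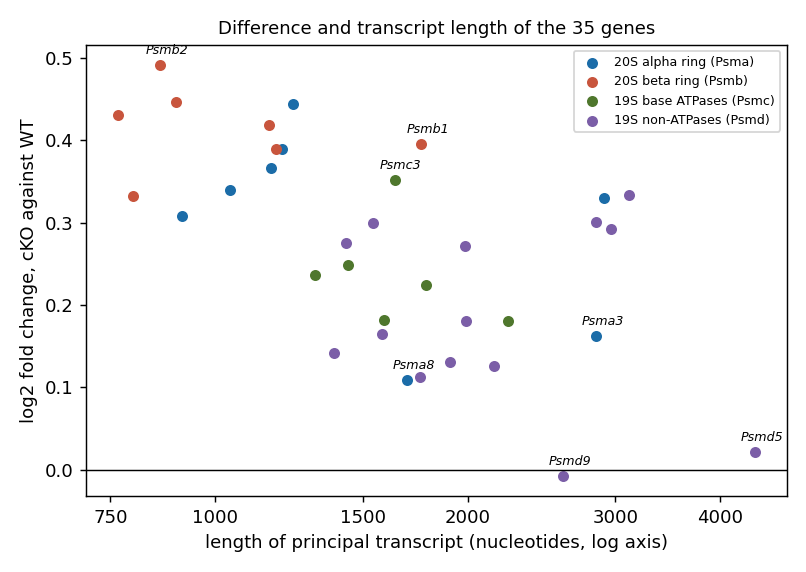
Log2 fold change (y axis, cKO against WT) of the 35 genes against the length of the principal transcript (x axis, log scale), coloured by part of the complex. The beta ring genes, in the upper left, have a median length of 899 nucleotides, the lowest of the 4 classes, and Psmd5, with 4397 nucleotides, lies at 0.022.

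Base composition moved with the libraries as well. Over all tested genes, Spearman's rho between GC content and each library's distance from the average was lowest for cKO replicate 1 (−0.52) and highest for cKO replicate 4 (0.44); for transcript length it was lowest for cKO replicate 4 (−0.40) and highest for WT replicate 1 (0.41). Of the 35 proteasome genes, cKO replicate 4 was the highest cKO library for 20, with a median GC content of 51.6%, and the lowest for 8 (Psma3, Psma8, Psmc6, Psmd1, Psmd6, Psmd11, Psmd12 and Psmd14), with a median of 43.8%. The rank correlation of the log2 difference between cKO replicates 4 and 1 with GC content was 0.65 across the 35 genes and 0.55 across all genes. When each library was given offsets for GC content and length, the median of the 35 genes was 0.22, that of all genes 0.0071, and 33 of the 35 genes did not change sign. Psmc3, Psmd1 and Psmd2 then passed, 3 of 35 (8.57%), all higher, beside 4.37% of all genes higher and 5.4% in either direction. The medians of the alpha, beta, ATPase and non-ATPase genes were then 0.23, 0.33, 0.20 and 0.21. The part of length and base composition in the differences was otherwise not tested.

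Mouse numbers fall into a lower run (cKO replicates 1 and 2 and WT replicate 1) and a higher run (cKO replicates 3 and 4 and WT replicates 2 and 3); the labels do not say what a run stands for. The lower run and the set without Xist each rest on 1 WT library, replicate 1, which was the lowest WT library for 29 of the 35 genes, so a median above 0 in these sets is no independent sign of the direction. The median difference in log2 CPM of the 35 genes was 0.32 in the lower run, with 35 of 35 above 0, and 0.30 in the higher run, with 31 of 35 above 0, while that of all genes was −0.026 and −0.0031. Xist RNA, made by the silenced X chromosome, reached 69.4 CPM in cKO replicate 2, 144 CPM in cKO replicate 4, 243 CPM in WT replicate 2 and 127 CPM in WT replicate 3; the remaining libraries had 0.66 CPM or less. Among the libraries with Xist the median was 0.34, with 32 of 35 above 0, and among those without it 0.27, with 34 of 35 above 0. With log2 CPM of Xist as a covariate, 14 of 35 passed (40.0%), all higher in cKO, beside 8.8% of all genes, or 6.21% higher. These 14 were 13 of the 15 core genes, all but Psma3 and Psma8, and 1 of the 20 regulatory genes, Psmc3. Other fits gave other tallies. With GC and length offsets the genes that passed, Psmc3, Psmd1 and Psmd2, were all regulatory. With DESeq2 they were Psma1, Psma4 and Psmb2 of the core and Psmd1 of the regulatory particle. The splits by run and by Xist were chosen after the data were seen. The split by Xist was also a split by base composition. Spearman's rho with GC content was 0.17, 0.44, 0.070 and 0.24 with Xist (cKO replicates 2 and 4, WT replicates 2 and 3). Without Xist it was −0.52, −0.42 and −0.019 (cKO replicates 1 and 3, WT replicate 1). In each library rho with length had the opposite sign. Xist and these trends thus cannot be told apart here.

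**Figure D5:**
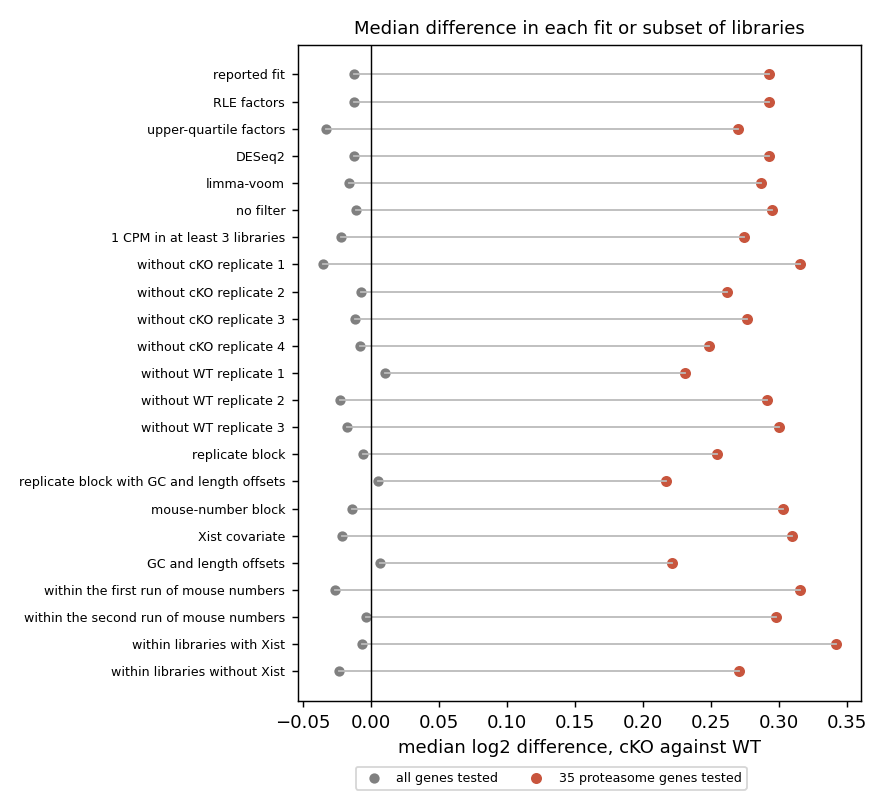
Median log2 difference, cKO against WT (x axis), of the 35 proteasome genes (red) and of all genes tested (grey) in the reported fit, in each alternative fit and in each subset of libraries. The red points lie between 0.22 and 0.34 and the grey points between −0.035 and 0.011.

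Of 41 other genes of the pathway, 40 were found, 3 of them under older symbols, and all 40 were tested. None passed the threshold with edgeR (smallest adjusted p 0.11), beside 0.359% of all genes. At an unadjusted p under 0.05, 13 (32.5%) were higher and 1 lower, beside 9.65% of all genes higher and 16.5% in either direction. In DESeq2 4 passed, beside 3.53% of all genes higher and 5.08% in either direction. The log2 fold change was above 0 for 29 of 40, beside 48.1% of all genes, and the median was 0.14. Every cKO library was above every WT library for 9 of the 40, beside 8.86% of all genes. Of the genes that build the complex, Pomp, the chaperone of core assembly, was at 128, 165, 167 and 190.5 CPM in the cKO mice, against 101, 129.9 and 134 CPM in the WT mice. Its cKO libraries lay above the WT libraries except for replicate 1 (log2 fold change 0.42 with SE 0.15, adjusted p = 0.19). For the other chaperones of core assembly, Psmg1, Psmg2 and Psmg3 had log2 fold changes of −0.016, −0.037 and −0.079, with Psmg4 at 0.21. Sem1, a small subunit of the lid, listed under its older symbol Shfm1, was at 48.8, 58.9, 62.2 and 67.3 CPM in the cKO mice, against 33.2, 47.8 and 44.7 CPM in the WT mice. The groups did not overlap (log2 fold change 0.50 with SE 0.15, adjusted p = 0.15). Adrm1, a receptor of ubiquitin chains in the 19S base, had a log2 fold change of 0.090.

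The activators that can cap the core in place of the 19S particle had log2 fold changes of 0.40 for Psme1 and 0.30 for Psme2, which form 1 ring together and are induced by interferon gamma. Psme1 was at 144, 195, 174 and 216 CPM in the cKO mice, against 124, 147 and 142 CPM in the WT mice. Here cKO replicate 1 lay within the WT range of Psme1 (log2 fold change 0.40 with SE 0.14, adjusted p = 0.18). Psmf1, an inhibitor of the core, had a log2 fold change of 0.14. Of the proteins bound to the 19S particle, Txnl1, a thioredoxin-like protein, had one of 0.29 with no overlap between the groups, and the deubiquitinase gene Usp14 one of 0.20.

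The list of carriers of ubiquitinated proteins, which also holds an unfoldase and other genes, had the smallest p of the pathway. Ubqln1, a shuttle that brings ubiquitinated proteins to the proteasome, was at 173, 166, 176 and 163 CPM in the cKO mice, against 133, 124 and 133 CPM in the WT mice. The 4 cKO libraries were all above the 3 WT libraries, with a wide gap (log2 fold change 0.38 with SE 0.10, adjusted p = 0.11). Of the 9 genes of this list, 5 had an unadjusted p under 0.05, the unfoldase among them, all higher, beside 9.65% of all genes higher. Uba1, which activates ubiquitin, was at 367, 471, 427 and 506 CPM in the cKO mice, against 358, 349 and 354 CPM in the WT mice, with cKO replicate 1 just above WT replicate 1 (log2 fold change 0.32 with SE 0.12, adjusted p = 0.21). Rps27a, which encodes ubiquitin fused to a ribosomal protein, had a log2 fold change of 0.42, and since such genes have processed pseudogenes its count is uncertain.

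The factors that drive proteasome genes had log2 fold changes of opposite sign. Nfe2l1, the factor that raises proteasome transcription when the proteasome is inhibited, was at 125, 142, 129 and 132 CPM in the cKO mice, against 171, 148 and 151 CPM in the WT mice. No cKO mouse reached the lowest WT mouse, and it was the 1 gene of the 40 with this order, beside 7.2% of all genes; the difference did not pass (log2 fold change −0.24 with SE 0.10, adjusted p = 0.26). Nfe2l2, which responds to oxidative stress, was at 205, 186, 199 and 166 CPM in the cKO mice, against 174, 155 and 172 CPM in the WT mice. The groups overlapped (log2 fold change 0.18 with SE 0.11, adjusted p = 0.44). RNA levels of these factors do not measure their activity, which is set largely after translation.

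The deposited counts leave some assignments uncertain. By RefSeq's gene table for GRCm38.p6, used only for names and neighbours, the spans of 9 of the 36 genes overlap another gene, and for 3 of them, Psma4, Psmd1 and Psmd10, that gene codes for a protein. The strand setting of the counting is not given in the sources used here, so reads of such neighbours cannot be told apart.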

How the data were processed

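RNA was measured in 7 libraries of sorted cortical microglia, 4 cKO and 3 WT, from poly(A) RNA of samples with a RIN above 8.5. The authors deposited 1 table of whole-number counts per gene symbol, not normalized, per the file headers 1 column per mouse. DRAGEN and GRCm39 were used, per the submitters' processing notes; the annotation, counting rule and strand setting: not given in the sources used here.

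Genes were kept with filterByExpr of edgeR 4.0.16 (least count 10, least total count 15; R 4.3.3), which left 11991. After TMM scaling, the quasi-likelihood test (robust option, no covariate) set cKO against WT, with Benjamini-Hochberg adjustment over all genes and a threshold of 0.05. The SE is the absolute log2 fold change divided by the square root of F. Log2 CPM used a prior count of 2. No 2 libraries of a group were alike within sampling noise: chi-square over its degrees of freedom was 18.8 or more for each pair.

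Alternatives were RLE and upper-quartile factors, DESeq2 1.42.0, limma-voom (limma 3.58.1), no filter, 1 CPM in at least 3 libraries, each library left out, a block for the replicate number or for the lower and higher mouse numbers, an Xist covariate, and loess offsets (span 0.3) for GC content and transcript length. Lengths and GC content come from GENCODE M21 principal transcripts (99.4% of genes tested). The genes described and the lists were chosen with earlier results of these data known. Values in every library are given for the 4 genes of each class with the smallest p and the gene with the lowest fold change; the pathway genes named are the 2 of each role with the smallest p. Psmb9, Psmg1, Psmg2 and Psmg3 were added to complete their groups after their values were seen. Some genes of the lists are not reported here.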

Additional observations from a re-analysis of the deposited data

Results flagged for a closer look

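In each gene named by the rules, the cKO libraries were searched for 1 library far from the other 3, by the gap to its neighbour over the range (Dixon's critical value). Of 52 genes, 2 were found, where chance gives about 1 in 20, or 2.6. Psma8 was at 2.82 CPM in cKO replicate 4 and from 4.26 to 4.54 CPM in the other cKO libraries. Psmd6, a lid gene, was at 60.6 CPM in cKO replicate 4 and from 73.6 to 75.4 CPM in the others, while WT ranged from 60.6 to 67.3 CPM.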

How the results depend on the processing

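The direction of the proteasome genes held in each of 18 alternative fits: from 33 to 35 of the 35 genes were above 0 and the median ranged from 0.22 to 0.32. All these fits draw on the same libraries, which the 35 genes also share, so their agreement is no independent sign of the direction. Of the 35 genes, 33 kept their sign in every fit. The Psmd5 log2 fold change (0.022 as reported) was −0.00077 with upper-quartile factors, −0.0038 with GC and length offsets and −0.058 with these offsets and the replicate block, and from −0.039 to 0.058 with 1 library left out. The Psmd9 log2 fold change (−0.0070 as reported) was 0.043 with mouse numbers as a block, 0.10 with Xist as covariate and 0.033 with GC and length offsets, and from −0.12 to 0.13 with 1 library left out. The median of all genes tested was 0.0071 with GC and length offsets, 0.0055 with these and the replicate block, and from −0.035 to 0.011 with 1 library left out, the last without WT replicate 1.

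Calls depended on the fit, and the cause was not tested. Of all genes, 43 passed as reported (0.359%), 538 with DESeq2 (5.08%), 89 with no filter (0.543%) and 170 with mouse numbers as a block (1.42%). With Xist as covariate 1055 passed (8.8%), with GC and length offsets 648 (5.4%), and with 1 library left out from 4 to 142 (0.0331% to 1.19%). Of the 35 genes, 4 passed with DESeq2 (Psma1, Psma4, Psmb2 and Psmd1), 14 with the Xist covariate, 3 with GC and length offsets, and 0 with any 1 library left out. Of the 40 pathway genes, 4 passed with DESeq2 (beside 5.08% of all genes) and 1 with mouse numbers as a block (beside 1.42%). With Xist as covariate 9 of the 40 passed (beside 8.8%), and with GC and length offsets 5 (beside 5.4%). The labels do not say whether the replicate numbers pair the libraries. The correlation of deviations from the group means was 0.39, 0.069 and −0.17 for numbers 1 to 3. So few pairs, centred within each group, cannot settle the question. With the replicate block 0 of the 35 and 1 of the 40 pathway genes passed, beside 288 of all genes (2.4%). With the block and the offsets 1 of the 35 (Psmc3, 2.86%) and 6 of the 40 passed, beside 730 of all genes (6.09%). With the block and the offsets, the class medians were 0.20 (alpha), 0.26 (beta), 0.21 (ATPase) and 0.17 (non-ATPase), so that the alpha ring no longer lay above the ATPases. The looser promoter core was in 18 windows instead of 5. With 4 and 3 mice, the SE of the log2 fold change ranged from 0.10 to 0.22 over the 35 genes, which limits what can pass.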
